A study of Camponotus floridanus with 64 samples.

Results

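Scout brains of the carpenter ant Camponotus floridanus that had been fed trichostatin A (TSA) were compared between colonies SB1 and SB2. All TSA scout RNA libraries that the labels assign to either colony were taken: b4, b7, b8 and b9 of SB1, and b1, b2, b3 and b10 of SB2. These are 8 of 64 samples in the series and 8 of its 21 scout brain libraries. The comparison asks how far brains given the same drug differ with the colony they came from.

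All 8 ants were adult minor workers collected as scouts, from colonies whose foundresses came from the Florida Keys. They fed freely on sugar water with 50 µM TSA and its solvent DMSO, and the labels give 45 days of treatment for ants isolated on day 25 to 30 of adult life. SB1 brains were all 72 days old. In SB2, brains b1, b2 and b3 were 68 days old and b10 was 70, so age and colony cannot be told apart. If feeding began at isolation on day 25, the ants of 68 days had fed for at most 43 days. Each library came from 15% of a single central brain, as poly(A) RNA copied through 1 round of linear amplification (LinDA). Each group is a single colony, so p-values measure the spread between nestmates and not between colonies in general.

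TSA blocks histone deacetylases, the enzymes that take acetyl groups off histones, and histone acetylation is associated with active genes. Minor workers are the smaller worker caste of this ant and do much of the foraging; scouts are foragers that leave the nest to search for food. Workers of a C. floridanus colony are usually daughters of a single queen, so ants of different colonies differ in genotype and also in nest history. The identifiers of the table carry no gene names apart from the class in some of them, such as tRNA (transfer RNA, the adaptors of translation) or OR (odorant receptors, which detect smells on the antenna).

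No identifier differed between the colonies after correction. Of 18130 identifiers, 5670 had a mean deposited log2 value of at least 1 over the 8 brains and were tested. Limma called 0 of them at a Benjamini-Hochberg adjusted p under 0.05, a share of 0%, and the smallest adjusted p was 0.521. At an unadjusted p under 0.05, 47 identifiers (0.829% of those tested) were higher in SB1 and 185 (3.26%) were lower. Together these 232 are 4.09% of all tested. All 4 SB1 values lay above all 4 SB2 values for 30 identifiers (0.529%), and below them for 131 (2.31%). The median difference, SB1 minus SB2, was -0.07 on the log2 scale. In a whole piece of brain, fewer cells of a type and less RNA per cell cannot be told apart.

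The surplus of lower values moved with the scaling of the libraries. Of the 232 identifiers 20.3% were higher in SB1. With a constant per library removed and undetected identifiers set to 0, which left 4493 to test, the counts were 97 higher and 136 lower, or 41.6% higher, at a median difference of 0.05. Quantile normalization gave 118 and 158 (42.8% higher) and median centring 112 and 165 (40.4%). Each of these scalings called 0 identifiers after adjustment.

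**Figure D1:**
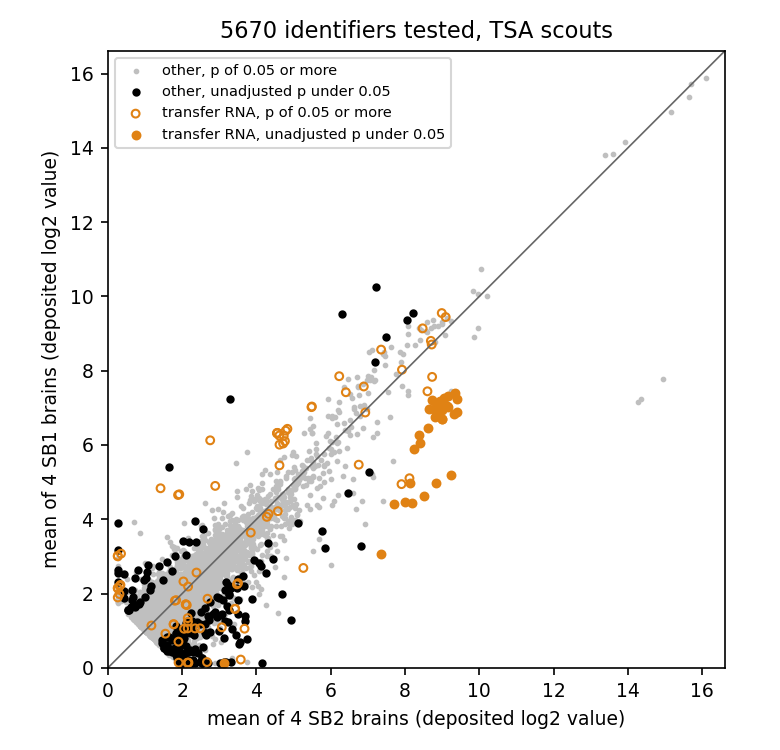
Mean deposited log2 value of the 4 SB2 brains (horizontal) against that of the 4 SB1 brains (vertical) for 5670 identifiers tested, with the line of equality. Filled points have an unadjusted p under 0.05 (limma), orange points are transfer RNA; a group of 42 filled orange points lies below the line.

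These 8 libraries leave wide intervals. The median half-width of the 95% interval of a difference was 1.12 on the log2 scale. For 609 of 5670 identifiers (10.7%) the whole interval lay between -1 and 1. Among numbered identifiers with a mean of 1 to 2, the half-width had a median of 1.07, and above a mean of 6 it was 1.41. A difference within its half-width was not detectable here. The intervals are not adjusted for the 5670 tests, so a difference beyond its half-width could also stay uncalled. Cflo_tRNA475, for example, differed by -2.47 (limma adjusted p = 0.521).

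The libraries differed among nestmates. Within each library, identifiers tied at the bottom could be recovered, and an identifier is called detected where it lay above that tie. SB1 brains detected 8451 (b4), 8368 (b7), 10074 (b8) and 11004 (b9) identifiers. SB2 brains detected 8079 (b1), 10185 (b2), 10204 (b3) and 12328 (b10). The colonies overlapped, with means of 9474 ± 1287 (SD, n = 4) and 10199 ± 1735 (SD, n = 4), and an exact two-sided permutation test gave p = 0.6 (adjusted p = 0.6 over 2 tests). With 70 arrangements the smallest p possible is 0.0286.

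The values of each library also carry 1 constant that shifts all its identifiers. The constant was 0.48 in b9 and between -0.01 and 0.07 in the other SB1 brains. In SB2 it was 0.84 in b10 and between -0.03 and 0.12 in the other brains. The same exact test gave p = 0.543 (adjusted p = 0.6) for the constant. Brains b9 and b10 therefore stand apart from their nestmates in the same direction, one in each colony. Without both, 138 identifiers were higher and 176 lower in SB1 at an unadjusted p under 0.05 (43.9% higher), and 0 were called by limma after adjustment. Values for single brains are given from here on as levels, which are deposited log2 values less that constant, with 0 for an identifier not detected. An identifier listed at 0 was assigned that level here, and its deposited value can be above 0.

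**Figure D2:**
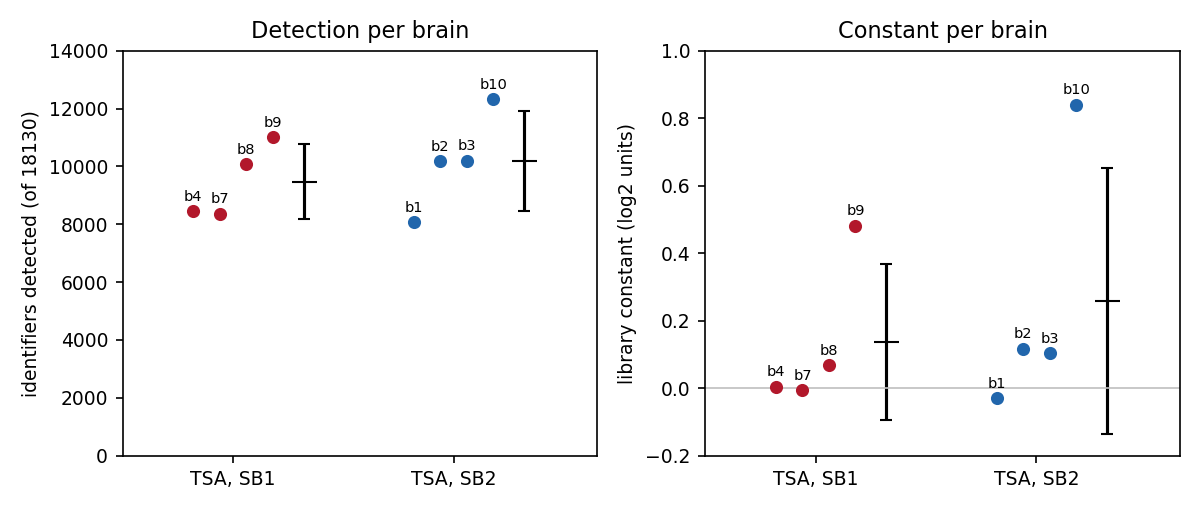
Identifiers detected (left) and library constant in log2 units (right) for each TSA brain of colonies SB1 and SB2, with the mean and SD of 4 brains in black. Brain b9 (11004 identifiers, constant 0.48) and brain b10 (12328, constant 0.84) are the highest of their colonies in both panels.

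The expression profiles of nestmates were only moderately alike. Pearson's r of levels over the tested identifiers averaged 0.625 within SB1 (6 pairs, 0.513 to 0.741) and 0.700 within SB2 (6 pairs, 0.633 to 0.772). Between the colonies it averaged 0.660 (16 pairs, 0.514 to 0.733), between these averages. The pair b9 and b10, from different colonies, had r = 0.657, while b9 averaged 0.535 with its 3 nestmates. Without b9 and b10 the averages were 0.715 within SB1, 0.719 within SB2 and 0.703 between them. These correlations run across genes, which are not independent replicates, and they share the depth of each library. The median SD of an identifier's level was 0.634 in SB1 and 0.555 in SB2, against 0.392 in 3 SB2 scouts given the solvent alone. It fell to 0.503 in SB1 without b9 and to 0.455 in SB2 without b10. In 3 SB1 scouts given TSA together with the inhibitor C646 it was 0.448. Tested identifiers were chosen by their mean in the TSA brains compared here, and how that choice affects the SD in other groups was not tested.

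**Figure D3:**
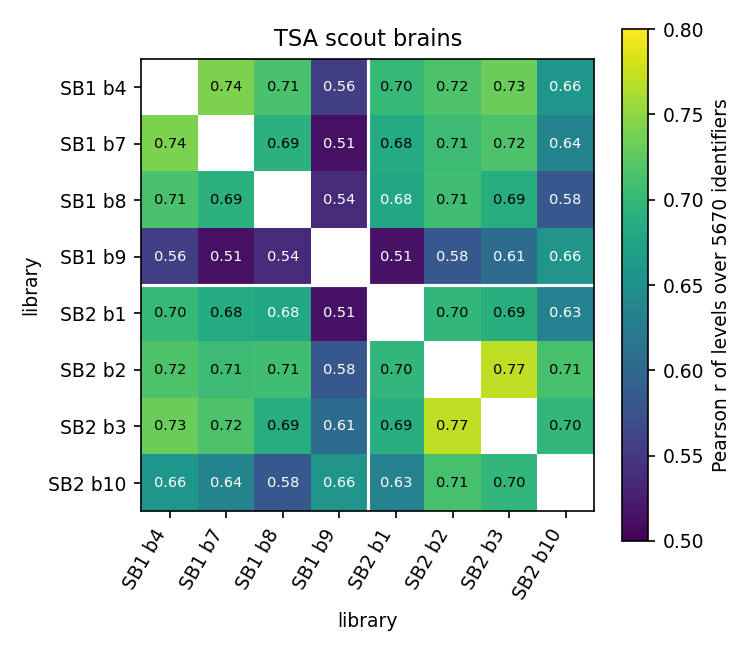
Pearson's r of levels over 5670 identifiers for each pair of the 8 TSA brains, with colonies separated by white lines. The row of b9 is the darkest, and pairs between colonies (0.514 to 0.733) span much of the range of pairs within them.

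Among the numbered identifiers higher in SB1, the 3 with the smallest p were detected in every SB1 brain. Cflo_00804 stood at a level of 2.75, 2.90, 2.92 and 2.0 in SB1 brains b4, b7, b8 and b9, and at 1.62, 0, 1.62 and 0 in SB2 brains b1, b2, b3 and b10. The colonies did not overlap, and b2 and b10 were listed at 0. The difference in deposited values was 1.71 (SE 0.43, limma adjusted p = 0.536). Cflo_12718 stood at 2.35, 2.75, 2.58 and 2.30 in SB1 and at 0, 0, 1.73 and 0.42 in SB2. Its SB1 brains were close together and above every SB2 brain, and the difference was 1.83 (SE 0.46, limma adjusted p = 0.540). Cflo_05634 was detected in all 8 brains, at 2.18, 2.66, 2.92 and 1.40 in SB1 and 0.76, 0.42, 1.25 and 0.67 in SB2. The gap between the lowest SB1 brain, b9, and the highest SB2 brain, b3, was narrow, and the difference was 1.39 (SE 0.40, limma adjusted p = 0.763).

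Cflo_16857 showed the largest difference among these 10, 3.62 (SE 1.12, limma adjusted p = 0.970). It stood at 6.08, 5.03 and 3.87 in SB1 brains b4, b8 and b9 and was listed at 0 in b7 and in all 4 SB2 brains. A single SB1 brain was thus like SB2. The mean deposited value of Cflo_16857 in SB2 was 0.26. It passed the filter on the mean, of at least 1, only through its SB1 values, so the filter fixed its direction. Without b7 it was the only identifier called, at a difference of 4.92 (limma adjusted p = 0.0476). C646 is an inhibitor of the acetyltransferases CBP and p300. In libraries outside the comparison Cflo_16857 was detected in 1 of 3 SB1 scouts given 50 µM TSA with 50 µM C646, at 4.23. It was listed at 0 in the 3 DMSO scouts of SB2, both TSA scouts of colony SB4, the 10 day 1 brains and the 6 subsample libraries.

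The other numbered identifiers named on this side had differences between 1.03 and 1.6. Cflo_06062 stood at 2.88, 3.97, 4.78 and 3.6 in SB1 and at 2.31, 2.64, 1.41 and 1.97 in SB2, a difference of 1.6 (limma adjusted p = 0.984). Cflo_00170 ran from 3.37 to 3.87 in SB1 and from 1.29 to 3.15 in SB2. Cflo_06581 ran from 1.94 to 3.33 in SB1 and from 0.34 to 1.48 in SB2. All 3 were detected in all 8 brains without overlap. Cflo_11574 ran from 0.88 to 1.92 against 0.11 to 0.57. Cflo_07170 ran from 1.6 to 2.3 against 0 to 1.10. The remaining one was Cflo_snRNA13, a small nuclear RNA, the class that includes the RNA cores of the spliceosome. It stood at 8.77, 8.21, 9.70 and 10.85 in SB1 and at 7.66, 6.65, 7.43 and 2.41 in SB2. Brain b10 was far below the rest, and the difference was 3.23 (SE 1.06, limma adjusted p = 0.999). Like Cflo_16857, the identifiers Cflo_12718, Cflo_11574 and Cflo_07170 passed the filter on the mean only through SB1. Their mean deposited values in SB2 were 0.80, 0.53 and 0.64, so the filter fixed their direction.

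Among the identifiers lower in SB1, Cflo_14341 had the smallest p of all tested. It was listed at 0 in b4 and b7, stood at 0.90 in b8 and 0.20 in b9, and reached 2.27, 2.63, 1.76 and 1.77 in SB2 brains b1, b2, b3 and b10. Every SB2 brain was above every SB1 brain, and the difference was -1.95 (SE 0.38, limma adjusted p = 0.521). Cflo_15060 was at 0.31, 0, 0.19 and 0 in SB1 and at 2.26, 1.89, 1.88 and 0.40 in SB2. Brain b10 lay close to SB1 here, and the difference was -1.60 (SE 0.33, limma adjusted p = 0.521). In TSA+C646 scouts of SB1, Cflo_15060 was detected in 3 of 3, at 1.11 to 2.27, and in DMSO scouts of SB2 in 2 of 3. Cflo_07932 was listed at 0 in all 4 SB1 brains and stood at 1.35, 2.22, 1.36 and 1.89 in SB2 (difference -1.82, SE 0.39, limma adjusted p = 0.521). The same identifier was listed at 0 in all 3 DMSO scouts of SB2. It was detected in 1 of 3 TSA+C646 scouts of SB1, at 2.72. In the separate tables it was detected in 9 of 10 day 1 brains and all 6 subsample libraries of SB2. Cflo_16361 was detected in b8 alone among SB1 brains, at 1.18, and stood at 2.74, 2.49, 1.46 and 1.40 in SB2 (difference -1.84, SE 0.42, limma adjusted p = 0.521). It too was listed at 0 in the 3 DMSO scouts of SB2, and it was detected in 1 of 3 TSA+C646 scouts of SB1, at 0.78. Mean deposited values of Cflo_14341, Cflo_15060, Cflo_07932 and Cflo_16361 were 0.14 to 0.43 in SB1 and 1.87 to 2.37 in SB2. All of these passed the filter on the mean only through their SB2 values. The filter thus fixed their direction, which is not a result.

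**Figure D4:**
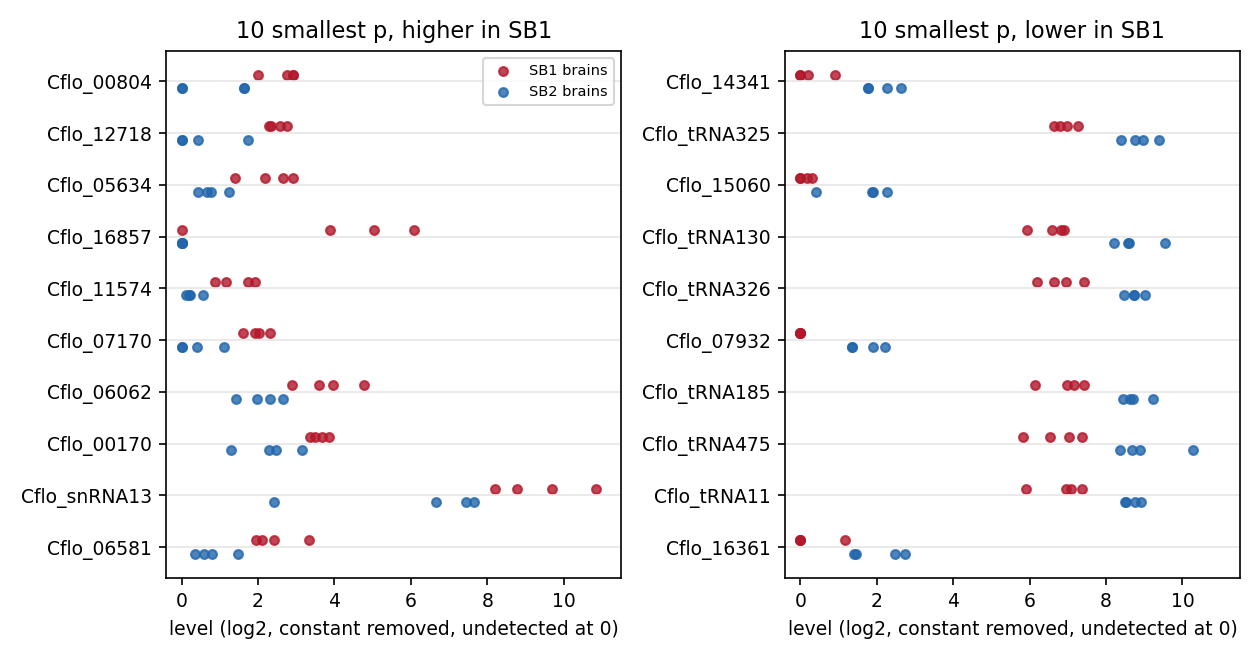
Level (log2, constant removed, undetected at 0) in each of 4 SB1 brains (red) and 4 SB2 brains (blue) for the 10 identifiers with the smallest p in each direction. The colonies overlap for Cflo_16857, whose b7 value is 0; none of the 20 passed adjustment.

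Transfer RNA made up the rest of the lower 10 and was the class with the largest share of small p-values. Transfer RNA carries amino acids to the ribosome and is not polyadenylated, so a poly(A) library is not designed to measure it. Of 458 transfer RNA identifiers 122 were tested, and 42 of these were lower in SB1 at an unadjusted p under 0.05, against 0 higher. Their adjusted p ran from 0.521 to 0.999 (limma), so none passed. The 122 had a median difference of -1.18, beside -0.07 over all identifiers tested, and 82 of them were lower in SB1. The 80 outside the 42 were even, with 40 higher and 40 lower in SB1 and a median difference of -0.004. The class median thus rested on the 42, which were picked by p. The share at an unadjusted p under 0.05 was 34.4% in the class and 4.09% over all tested.

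Cflo_tRNA325 was at a level of 6.65, 6.98, 7.25 and 6.79 in SB1 brains b4, b7, b8 and b9, and at 8.75, 9.39, 8.98 and 8.39 in SB2 brains b1, b2, b3 and b10. The colonies were separate by more than 1 on the log2 scale, and the difference was -2.08 (SE 0.42, limma adjusted p = 0.521). Cflo_tRNA130 ran from 5.94 to 6.91 in SB1 and from 8.21 to 9.54 in SB2. Cflo_tRNA475 ran from 5.83 to 7.37 in SB1 and from 8.37 to 10.27 in SB2. Cflo_tRNA326, Cflo_tRNA185 and Cflo_tRNA11 likewise had no overlap, with differences of -2.05, -1.94 and -1.97. Over the 42 the difference ran from -1.50 to -4.29 with a median of -2.05, and SB1 lay wholly below SB2 in 41 on deposited values and in 39 on levels. Over all identifiers tested that share was 2.31% on deposited values, and on levels it is not given here. The 42 were picked by p on the same deposited values, so neither count is separate support.

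The 42 are not 42 separate measurements. In at least 1 of 6 brains, 22 of them stood in runs of at least 6 neighbouring ranks that follow line order, the longest of 14, as identifiers do that held equal values before normalization. Near-identical copies that share reads can hold equal values, so the level of each copy is uncertain. Where an identifier was listed at 0 it also pulled the mean: 8 of the 42 were undetected in b7, 3 in b4, and at most 1 in any other brain. The 33 detected in all 8 brains had a mean level of 6.76 (b4), 7.04 (b7), 7.08 (b8) and 6.27 (b9) in SB1. In SB2 their mean was 8.37 (b1), 9.33 (b2), 8.57 (b3) and 8.44 (b10), without overlap. The 33 belong to the 42 picked by p between these same brains, so this separation follows from the choice and is not separate support. The other 80 transfer RNA identifiers tested had differences from -3.35 to 3.42.

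In brains outside the comparison SB1 was not below SB2 in this measure. The mean level of the 42 was 5.66 to 6.72 in TSA scouts of SB1 and 8.02 to 9.17 in those of SB2. In the 3 SB1 scouts given TSA with 50 µM C646, aged 63 days, it was 8.08 to 8.52, inside the SB2 range. The 3 SB2 scouts given DMSO alone, aged 78 days, had 7.80 to 8.67. TSA scouts of colony SB4, aged 72 and 73 days, had 6.93 and 7.61, between the colonies. The lowest means of all, 0.68 and 0, were in the DMSO scout of SB7 and in 1 of 2 TSA+C646 scouts of SB4 (100 µM C646). The latter detected 2791 identifiers in all. Treatment and age differ between these groups, and their part in the pattern was not tested.

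**Figure D5:**
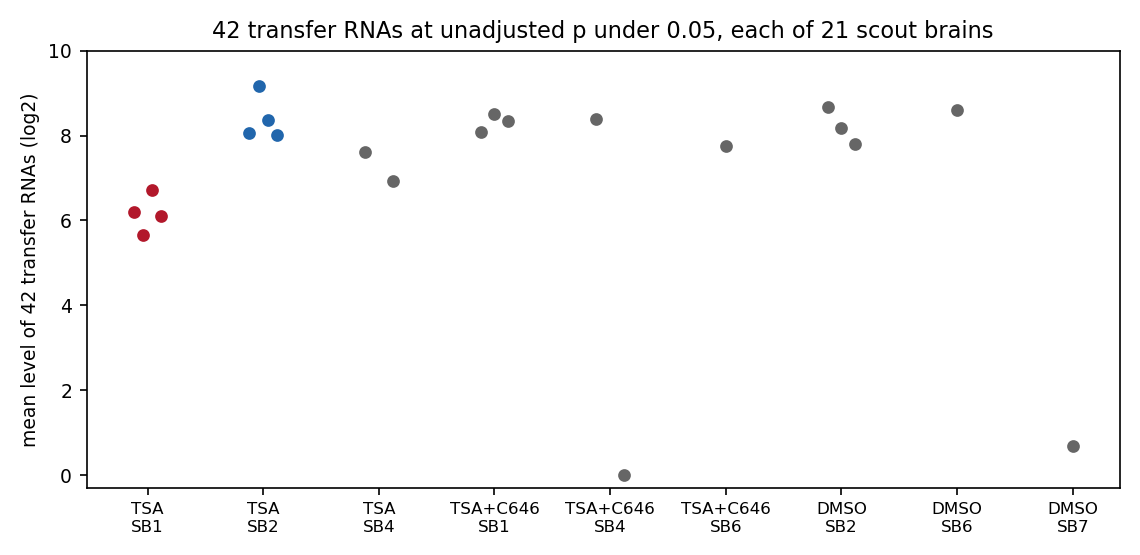
Mean level (log2, constant removed, undetected at 0) of the 42 transfer RNA identifiers that had an unadjusted p under 0.05, in each of 21 scout brains by treatment and colony. The 4 TSA brains of SB1 (5.66 to 6.72) lie below those of SB2 (8.02 to 9.17), while the 3 TSA+C646 brains of SB1 (8.08 to 8.52) lie with SB2; the 42 were chosen on the red and blue points.

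Ribosomal RNA held the largest differences in size, and they came from 2 brains. Ribosomal RNA forms the ribosome and is abundant in every cell, and most of it has no poly(A) tail. Cflo_rRNA15 was at 15.3 in b4 and b7, at 15.3 in b1 and at 14.5 in b2, b3 and b10, and was listed at 0 in SB1 brains b8 and b9. Cflo_rRNA14 and Cflo_rRNA16 had the same form, at 13.7 to 14.2 where detected in these brains and at 0 in b8 and b9. The colonies overlapped, since b4 and b7 were as high as SB2. Differences were -7.17 (95% interval -14.95 to 0.61), -7.12 (-14.27 to 0.02) and -7.12 (-14.35 to 0.11) for Cflo_rRNA15, Cflo_rRNA14 and Cflo_rRNA16 (limma adjusted p = 0.999 for each).

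The same 3 identifiers were detected in 19 of 21 scout brains and, in the separate day 1 table, in 2 of 10. Their 0 in b8 and b9 stands in libraries where Cflo_rRNA18 was at 15.9 and Cflo_rRNA22 at 15.6 and 15.3. A level of 0 can therefore belong to an RNA that every cell uses, and it may be a failed estimate. Cflo_11534, which stands on a line among theirs in the table, was the only other tested identifier with that pattern over the 21 brains, so 4 identifiers had it. Within the 8 TSA brains alone, 14 tested identifiers were undetected in b8 and b9 and detected in the other 6. Cflo_11534 stood at 6.14 and 6.42 in b4 and b7, at 6.28 to 6.79 in SB2, and at 0 in b8 and b9. Cflo_11534 and the 3 ribosomal RNA identifiers were named after their values were seen. Of 20 ribosomal RNA identifiers tested, 1 was higher in SB1 and 0 were lower at an unadjusted p under 0.05, and the median difference was -1.59. The 1 higher was Cflo_rRNA5, at 8.75 to 9.63 in SB1 and 6.14 to 9.22 in SB2, which overlap (difference 1.30, limma adjusted p = 0.999).

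The remaining classes were small. Of 16 small nuclear RNA identifiers tested, 1 was higher and 1 lower in SB1 at an unadjusted p under 0.05. Of 5 identifiers with the prefix antTRG and 3 micro RNA identifiers tested, 0 were. The 5493 numbered identifiers gave 45 higher and 140 lower, with a median difference of -0.06.

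The number of odorant receptors detected was 46, 38, 61 and 82 of 407 in SB1 brains b4, b7, b8 and b9, and 48, 90, 104 and 154 in SB2 brains b1, b2, b3 and b10. The colonies overlapped, and b9 and b10 were the highest of each. Orco, the coreceptor that insect odorant receptors need in order to signal, was listed at 0 in b4, b7, b8 and b2 and was at most 0.91, in b1. The ionotropic coreceptors IR25a, IR8a and IR76b ran from 0 to at most 0.39, 0.72 and 0.64 in the 8 brains, with overlap between the colonies. Of 9 odorant receptors tested, 2 (22.2%) were lower in SB1 at an unadjusted p under 0.05, beside 3.26% of all tested, and 0 were higher. These 2 passed the filter on the mean only through their SB2 values (mean 0.20 in SB1, 2.18 and 2.28 in SB2). The filter thus fixed their direction, and the share is not a result about the class.

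Both were listed at 0 in every SB1 brain. Cflo_OR91 stood at 2.38, 1.40, 1.32 and 3.02 in SB2 brains b1, b2, b3 and b10, a difference of -2.08 (SE 0.53, limma adjusted p = 0.540). Cflo_OR90 stood at 2.41, 1.32, 1.06 and 2.89, a difference of -1.97 (SE 0.54, limma adjusted p = 0.662). These receptors followed each other closely from brain to brain, and paralogs that share reads cannot be told apart here. In brains outside the comparison, both were detected in 3 of 3 TSA+C646 scouts of SB1, at 0.19 to 1.5 for Cflo_OR91, and so were not absent from that colony. In DMSO scouts of SB2, Cflo_OR91 was listed at 0 in all 3 and Cflo_OR90 was detected in 1, at 0.28.

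The other receptors tested overlapped between the colonies. Cflo_OR313 had a difference of -0.84 (95% interval -1.98 to 0.29), Cflo_OR24 of -0.56 (-2.21 to 1.10), Cflo_OR72 of -0.20 (-1.65 to 1.24) and Cflo_OR73 of -0.05 (-1.45 to 1.34). Cflo_OR72 and Cflo_OR73 also had similar levels in each brain except b3, where they stood at 1.62 and 0.78. Cflo_OR139 had a difference of 0.74 (-0.85 to 2.33), Cflo_OR61 of 0.72 (-0.90 to 2.35) and Cflo_OR28 of 0.29 (-0.64 to 1.22). All of these intervals hold 0 and most reach beyond 1 on the log2 scale. Cflo_GR48, the only gustatory receptor tested, was at 4.09, 4.21, 4.98 and 0.81 in SB1 and at 3.79, 4.41, 2.36 and 0 in SB2. It was lowest in b9 and b10, and the difference was 0.76 (-1.42 to 2.95). Cflo_IR311, the only ionotropic receptor tested, was at 1.39, 2.22, 3.35 and 0 in SB1 and at 1.58, 1.47, 1.68 and 0.02 in SB2. It too was lowest in those libraries, and the difference was 0.44 (-0.89 to 1.77).

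Detection in all brains of a colony and in none of the other was rare. Of 18130 identifiers, 1 was detected in all 4 SB1 brains and no SB2 brain (0.00552%), and 20 in all 4 SB2 brains and no SB1 brain (0.11%). The former was Cflo_09940, at 0.40, 0.62, 0.51 and 0.17 in SB1. Its level was low in every brain. It was also detected in 1 of 3 TSA+C646 scouts of SB1, 1 of 3 DMSO scouts of SB2 and 6 of 10 day 1 brains of SB2. The latter were 17 numbered identifiers and 3 odorant receptors, Cflo_OR90, Cflo_OR91 and Cflo_OR79, with mean SB2 levels from 0.21 to 2.03. Cflo_OR79 stood at 1.6, 1.16, 0.78 and 0.58 in SB2.

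Cflo_06395 reached 2.82, 0.67, 1.6 and 1.94 in SB2 brains b1, b2, b3 and b10 (difference -1.87, SE 0.48, limma adjusted p = 0.540). Its mean deposited value was 0.14 in SB1 and 2.01 in SB2, so it was tested only through SB2, which fixed its direction. Cflo_10634 stood at 1.94, 0.78, 2.54 and 0.91, and Cflo_14012 at 2.09, 0.93, 0.74 and 0.53. Cflo_07918 ran from 0.17 to 1.74, Cflo_10964 from 0.51 to 1.79 and Cflo_07213 from 0.14 to 1.48. The SB2 brains thus varied widely among themselves, with b1 often the highest. Of the 20, 19 were detected in at least 1 of 3 TSA+C646 scouts of SB1, and 4 in all 3. In DMSO scouts of SB2, 12 were detected in at least 1 of 3 and 1 in all 3. Cflo_10634 was detected in neither of these 2 groups. Of the 20, 0 were absent from the TSA+C646 scouts of SB1 and present in a DMSO scout of SB2. Detection was uneven between these groups. TSA+C646 brain b16 of SB1 detected 12032 identifiers, against 8659 in b11 and 8154 in b13. The DMSO scouts of SB2 detected 7839 to 8931. How far b16 alone accounts for the 19 was not tested.

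The identifiers that differed most were also read in other brains of these colonies. TSA+C646 scouts of SB1 and DMSO scouts of SB2, 3 brains each, share no sample with the comparison but differ in treatment and age as well as colony. On levels, 18 of the 47 identifiers higher in SB1 were higher in the SB1 brains of that second pair, or 38.3%, beside 48.4% of all 5670 tested. Of the 185 lower in SB1, 71 were lower there, or 38.4%, beside 50.0% of all tested. Among the 10 named in each direction, 3 of 10 kept it on the higher side and 3 of 10 on the lower side. The library constant of TSA+C646 brain b16 was 0.91, against 0.006 in b11, -0.02 in b13 and -0.04 to 0.02 in the DMSO scouts. On deposited values, where the constant of each library remains, 30 of the 47 were higher (63.8%, beside 75.2% of all tested) and 39 of the 185 lower (21.1%, beside 24.8%). On that scale 4 of the 10 named higher and 0 of the 10 named lower kept their direction. Of the 42 transfer RNA identifiers 17 were lower, with a median difference of 0.04. This second pair was chosen after the data had been seen.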

How the data were processed

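The authors deposited normalized expression values, read here as log2 from the sums of the values, since no header states a base. The submitters' processing notes name Bowtie2, Cufflinks 2.2.1 and bcl2fastq 2.0; genome build and annotation: not given in the sources used here. Depth is unknown, because the table holds no counts; it holds no spike-in rows either, although a spike-in mix was added, per the labels' protocols.

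The sorted values of every scout library followed 1 shared distribution plus 1 constant, floored at 0, with a largest deviation of 1.00002e-10. Identifiers tied at the bottom rise in line order, which gave detection. The deposited value of an identifier not detected reached 0.840 in these 8 brains.

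Deposited values of the 8 libraries were tested with limma 3.58.1 in R 4.3.3 (variance trend, mean of at least 1, Benjamini-Hochberg, threshold 0.05), since they were already logged. Intervals are 95% intervals of that fit. Single values per library had exact permutation tests in scipy 1.17.1. Tables and plots used pandas 2.3.3, numpy 2.4.6 and matplotlib 3.10.9. The fit was tested on simulated data. Named identifiers were the 10 with the smallest p in each direction, up to 10 detected in 1 colony only in each direction, and every receptor tested. The members and lists were chosen with earlier results of these data known. The alternatives covered scaling, pseudocount, filter, weights, samples in the fit and each library left out. No brain or cell type marker list could be measured except Orco and 3 ionotropic coreceptors, because 0 identifiers match the 14020 genes of the reference. Columns without a sample numbered 0. The chromatin samples were not analysed here.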

Additional observations from a re-analysis of the deposited data

Results flagged for a closer look

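In 66 groups of 4 brains examined, 5 had a brain whose gap to the nearest nestmate exceeded Dixon's critical value of 0.829 of the range; chance gives this in about 1 in 20 groups. The library constant of b9, 0.48, stood apart from -0.01 to 0.07 in the other SB1 brains. That of b10, 0.84, stood apart from -0.03 to 0.12 in the other SB2 brains. Cflo_07213 was at 1.48 in b1 and at 0.14 to 0.23 in the other SB2 brains. Cflo_OR313 was listed at 0 in b10 against 1.84 to 2.2, and Cflo_IR311 was at 0.017 in b10 against 1.47 to 1.68. Of these 5, 3 were in b10.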

How the results depend on the processing

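The count of identifiers past the threshold was 0 to 3 over single libraries left out: 1 without SB1 b7 (Cflo_16857, higher in SB1, smallest limma adjusted p = 0.0476), 3 without SB2 b1 (Cflo_15328, Cflo_07597 and Cflo_11829, lower in SB1, smallest limma adjusted p = 0.00741) and 0 without any of the other 6. These 3 were listed at 0 in b1 and in every SB1 brain. Their mean deposited values in SB1 were 0.15, 0.16 and 0.14, so they passed the filter on the mean only through SB2. Cflo_16857 passed it only through SB1. The filter thus fixed the direction of all the identifiers called here, and that direction is not a result. The other 13 settings gave 0. At an unadjusted p under 0.05 the counts were 70 higher and 297 lower with no filter, 13 and 68 with a mean of at least log2(5 + 1), where 1151 identifiers were tested, 153 and 293 with array weights, 105 and 240 without b9, and without b10 closer to even (121 and 126, median difference 0.11). Without the constants and without b9 and b10, an alternative chosen after seeing the data, they were 161 and 153. Fits to all 21 scouts gave 72 and 134, or 72 and 88 with additive colony and treatment. The transfer RNA median was -0.13 with no filter, where most of the 458 are undetected. The difference in detected identifiers ran from -1431 to -15.1 over libraries left out. That in the constant ran from -0.24 to 0.074, and the sign turned without b10 (0.074). Identifiers detected in 1 colony only numbered 2 to 21 on the SB1 side (1 with all brains) and 23 to 88 on the SB2 side (20 with all brains) over libraries left out. With a deposited value above 1 the SB1 side had 2, and with at least 3 of 4 brains against none the sides had 23 and 151. Of 601 values of named identifiers, 590 kept direction and side of the threshold and 1 came past it (Cflo_16857). The other 10 turned sign, all in receptors whose 95% interval held 0. Differences of these receptors in the main fit ran from -0.56 (Cflo_OR24) to 0.44 (Cflo_IR311). Cflo_OR73 was 0.067 after quantile normalization, 0.054 after median centring, 0.20 with array weights, 0.19 in the additive fit and -0.40 to 0.29 over libraries left out (0.29 without b7). Cflo_OR24 was 0.024 with array weights and 0.36 without b9 and b10. Over libraries left out Cflo_OR72 ran from -0.63 to 0.30 (0.17 without b7, 0.30 without b1) and Cflo_IR311 from -0.073 (without b8) to 0.89. No paired analysis was possible because the TSA brains of SB1 and SB2 share no replicate number.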
